A study of Rattus norvegicus with 4 samples.

Results

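Solute carriers are membrane proteins that move nutrients, nucleosides, ions, vitamins, metals and drugs across cell and organelle membranes. This account covers 49 solute carrier genes in rat liver, out of 958 named genes on the array. They were all the genes whose current symbol begins with Slc or Slco, apart from Slc10a1, Slco1a4, Slc38a2 and Slc38a3. Together they were measured by 89 probes. They were grouped by what their family carries into 10 amino acid, 4 nucleoside, 7 organic ion, 7 sugar, 1 metal and 20 other carriers.

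Livers came from male Sprague-Dawley rats killed 18 h after 1 intraperitoneal injection, either of alpha-naphthylisothiocyanate (ANIT, 75 mg/kg in olive oil) or of the same volume of olive oil. ANIT is a toxicant that injures bile duct cells and stops bile flow. Each treatment was represented by mixed RNA of 3 rats. The ANIT and the olive oil mixture were compared on 4 cDNA arrays spotted on glass, where Cy5 marked ANIT on arrays 1 and 3 and Cy3 marked it on arrays 2 and 4. The treatment therefore had 1 replicate, no test of it was possible, and every comparison below is between these pools. In whole liver, fewer cells of a type and less RNA per cell cannot be told apart.

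Values are log ratios of ANIT over olive oil, taken as log2. This direction is the likely one, because every title names ANIT and ANIT is listed as the second channel on all 4 arrays, but the table states neither direction nor log base. Array values below are as deposited. Mean ratios were taken after centring each array on its median over all probes, which lowered every mean by 0.15 (log2). Each error is an SD computed between the arrays that share a dye orientation, averaged as a variance over both pairs (n = 4 arrays), and it describes hybridisation only. Ratios hold no level of expression, so the labelled tissue could not be checked against its markers by level. Of 8 hepatocyte markers 4 were measured, with a median ratio of -0.20. Of other cell types, 2 of 8 cholangiocyte markers had a median of 0.11, 2 of 5 endothelial markers -0.14 and 2 of 6 stellate cell markers -0.19. The cholangiocyte markers went both ways (-0.12 and 0.34), as did the stellate cell markers (-0.58 and 0.19), while the endothelial markers had -0.25 and -0.038. The 1 of 5 neutrophil markers measured had 0.038, and 0 of 6 Kupffer cell and macrophage markers were measured. The part of these cell types in the ratios was not tested.

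In hepatocytes, sinusoidal carriers take up nutrients, nucleosides and organic anions from blood, while the blood-facing sugar carrier also releases glucose. Purine and pyrimidine nucleosides enter by concentrative carriers, which use the sodium gradient, and by equilibrative carriers, which work in both directions. ATP-driven pumps then move many organic anions into bile.

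The lowest ratios among the solute carriers were those of a pair of nucleoside carriers, Slc28a2 and Slc29a1, at 1.78-fold and 1.56-fold lower in the ANIT pool. They were the only members at least 1.5-fold apart with 1 sign on all 4 centred arrays. By this rule 2 of the 49 were lower (4.08%), against 2.19% of all genes, and 0 were higher, against 3.55%. The highest ratios were those of Slc25a14, a carrier of the inner mitochondrial membrane, at 1.30-fold and of Slc2a2, the glucose carrier of hepatocytes, at 1.26-fold. None of the 49 was at least 2-fold apart, a size that 23 of all 958 genes (2.4%) reached.

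Slc28a2 encodes CNT2, the sodium-coupled carrier of purine nucleosides. Its log2 ratios on arrays 1 to 4 were -0.96, -0.47, -0.91 and -0.39. All 4 lay below 0, and as deposited the arrays with ANIT in Cy5 were lower than those with ANIT in Cy3. After centring this order turned, and Slc28a2 read -0.43, -1.32, -0.38 and -1.21. Its mean centred ratio was -0.83 ± 0.057 (SD), the 13th lowest of all 958 genes, or -0.68 (1.60-fold) without centring, where it alone passed 1.5-fold, as did 15 lower genes of all 958 (1.57%). Slc29a1 encodes ENT1, the main equilibrative carrier of the plasma membrane. Its arrays read -0.72, -0.34, -0.67 and -0.21, again all below 0. After centring they read -0.19, -1.18, -0.14 and -1.04, likewise lower with ANIT in Cy3. The mean was -0.64 ± 0.076, the 24th lowest or -0.48 (1.40-fold) without centring. If the table were a plain Cy5 over Cy3 ratio, the sign of arrays 2 and 4 would have to be reversed. With each array then centred on its median, these means would be 0.43 and 0.47, on the other side of 0. That turn depends on the centring. As deposited, Slc28a2 averaged -0.93 with ANIT in Cy5 and -0.43 with ANIT in Cy3, and Slc29a1 -0.69 and -0.28. Reversing the Cy3 values without centring would leave both means below 0. Under that reading with centring, 7 of the 14 members chosen for per-array values kept their sign.

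The other nucleoside carriers of the equilibrative family had mean ratios nearer 0; their array values were added after they had been seen. Slc29a2 (ENT2), which also carries nucleobases, read 0.10, 0.42, 0.024 and 0.37, with a mean of 0.076 ± 0.040. As deposited, every array of Slc29a2 lay above every array of Slc28a2 and of Slc29a1. After centring, Slc29a2 was above both on each single array. Its arrays 2 and 4 (-0.42 and -0.46) then lay below arrays 1 and 3 of Slc29a1 (-0.19 and -0.14). Slc29a3 (ENT3), an intracellular carrier, read -0.87, 0.91, -0.54 and 0.75 as deposited, so that its sign followed the dye, and its mean was -0.091 ± 0.18. Thus 2 of the 4 nucleoside carriers were at least 1.5-fold lower and 0 higher, against 21 lower (2.19%) and 34 higher (3.55%) of all 958 genes. The nucleoside median was -0.36, beside -0.053 over all 49 members and -0.040 over all genes. Each nucleoside carrier rested on 1 probe.

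The promoters of these genes are shown because the nucleoside class held both members past 1.5-fold, and they are of unlike composition. Sequences are the 250 bases before the annotated start in RefSeq, in lower case. Capitals mark matches, on either strand, to 4 short motifs. These were the core promoter element TATAAA, the element CCAAT that is bound by the factor NF-Y, the box GGGCGG that is bound by Sp1 and its relatives, and the nuclear receptor half-site AGGTCA.
Slc28a2 promoter, GRCr8 chr3:129819538-129819787, plus strand: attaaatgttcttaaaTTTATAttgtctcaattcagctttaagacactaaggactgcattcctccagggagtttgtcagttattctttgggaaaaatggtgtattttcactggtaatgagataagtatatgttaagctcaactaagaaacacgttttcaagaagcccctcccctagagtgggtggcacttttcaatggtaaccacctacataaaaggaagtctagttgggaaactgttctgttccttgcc
Slc29a1 promoter, GRCr8 chr9:22896849-22897098, plus strand: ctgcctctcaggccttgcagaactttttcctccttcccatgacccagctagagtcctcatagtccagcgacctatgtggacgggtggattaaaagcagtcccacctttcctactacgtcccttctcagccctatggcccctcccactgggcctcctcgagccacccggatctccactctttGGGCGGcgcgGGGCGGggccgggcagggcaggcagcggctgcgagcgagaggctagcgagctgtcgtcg
Slc29a2 promoter, GRCr8 chr1:211757074-211757323, plus strand: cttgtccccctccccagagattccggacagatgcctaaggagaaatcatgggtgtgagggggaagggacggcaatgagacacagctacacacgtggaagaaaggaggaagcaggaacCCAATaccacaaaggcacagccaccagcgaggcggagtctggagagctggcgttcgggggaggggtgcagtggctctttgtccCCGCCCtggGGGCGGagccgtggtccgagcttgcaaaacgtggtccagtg
Slc29a3 promoter, GRCr8 chr20:29228300-29228549, minus strand: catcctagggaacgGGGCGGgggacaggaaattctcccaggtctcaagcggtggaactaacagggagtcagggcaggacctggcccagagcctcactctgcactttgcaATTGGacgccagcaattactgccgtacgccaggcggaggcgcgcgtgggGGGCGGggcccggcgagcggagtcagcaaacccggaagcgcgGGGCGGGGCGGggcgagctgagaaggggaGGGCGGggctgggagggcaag
The Slc28a2 window had 38% G or C and held no GGGCGG, while the Slc29a1, Slc29a2 and Slc29a3 windows had 63.6%, 61.2% and 68.8%. The Slc29a1 window held 2 matches to GGGCGG, 69 and 59 bases before the start. The Slc29a2 window held 2 as well, 50 and 41 bases before it, and a CCAAT. The Slc29a3 window held 5, between 236 and 21 bases before the start and with 1 pair overlapping, and a CCAAT on the reverse strand. The lone match in Slc28a2 was to TATAAA on the reverse strand, 234 bases before the start. No AGGTCA lay in these 4 windows, which says only that these letters are not there. A promoter was found for 41 of the 49 members. GGGCGG lay in 21 of them (51.2%) against 30.5% of 33469 RefSeq promoters, TATAAA in 3 (7.32% against 12.9%), CCAAT in 12 (29.3% against 34.0%) and AGGTCA in 4 (9.76% against 14.1%). The median share of G or C was 59.2% in the members and 51.2% in all promoters. A match is a description of the letters and not a binding site.

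**Figure D1:**
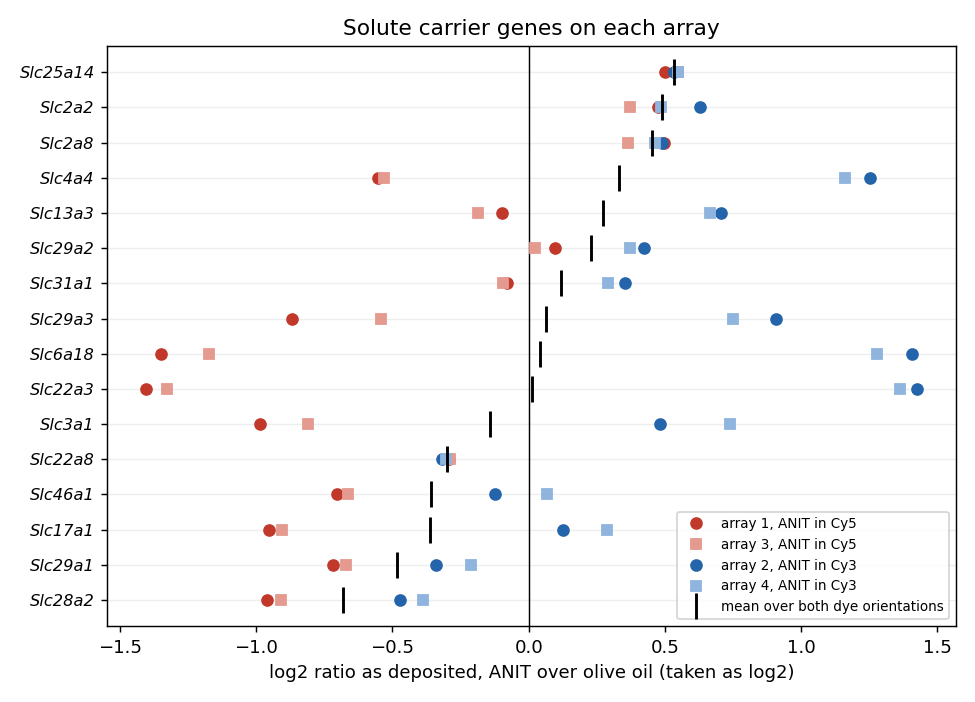
Log2 ratios as deposited (x axis) of 16 solute carrier genes (y axis) on each of the 4 arrays, red for ANIT in Cy5 and blue for ANIT in Cy3, with a bar at the mean over both orientations. Slc28a2, Slc29a1 and Slc22a8 lie below 0 and Slc25a14, Slc2a2, Slc2a8 and Slc29a2 above 0 on all 4 arrays, whereas for Slc22a3 and Slc6a18 the red and blue points lie over 2 log2 units apart around 0.

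Organic ion carriers move drugs, steroid conjugates, carnitine and other charged organic molecules. Slc22a8 (OAT3), an organic anion exchanger, had the lowest ratio of the 7. Its arrays read -0.29, -0.32, -0.29 and -0.30, nearly the same value in both dye orientations. The mean was -0.45 ± 0.017 after centring and -0.30 without. It would be 0.69 under the plain Cy5 over Cy3 reading with each array centred after the reversal. Without that reversal, arrays 1 and 3 lay above 0 after centring and arrays 2 and 4 below it. Slc22a3 (OCT3), an organic cation carrier, read -1.40, 1.43, -1.33 and 1.36, with a mean of -0.14 ± 0.044 that turned to 0.013 without centring. The organic anion polypeptides Slco2b1 and Slco1c1, the latter a thyroid hormone carrier, had means of -0.12 and -0.085 over 4 and 5 probes. Slc22a18, a putative cation carrier, had -0.10 over 3 probes between -0.12 and -0.092. Slc22a6 (OAT1), known from kidney, had -0.038 and the carnitine carrier Slc22a5 (OCTN2) 0.051. The class had 0 members past 1.5-fold and a median of -0.10, which was 0.048 without centring.

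Among sugar carriers, Slc2a2 (GLUT2), the bidirectional glucose carrier of hepatocytes, read 0.47, 0.63, 0.37 and 0.49. Slc2a8 (GLUT8), an intracellular hexose carrier, read 0.50, 0.49, 0.37 and 0.46. Both lay above 0 on every array as deposited, with differences between dye orientations of -0.13 and -0.045. After centring, arrays 2 and 4 lay below 0, at -0.22 and -0.34 for Slc2a2 and at -0.36 for Slc2a8 on both. Their centred means were 0.34 ± 0.081 and 0.30 ± 0.067. The urate and fructose carrier gene Slc2a9 had 0.058, the inositol carrier gene Slc2a13 0.050 and Slc2a4 (GLUT4), the insulin-responsive carrier of muscle and fat, 0.038. Slc2a1 (GLUT1), the widespread glucose carrier, had -0.13 and Slc35a1, which brings CMP-sialic acid into the Golgi, -0.092. The class had 0 members past 1.5-fold. Its median of 0.050 was the only class median above 0 after centring, and it was -0.013 with Hprt1 and Actb set to 0.

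Amino acid carriers spanned a narrow range, from -0.30 to 0.070 with 0 of 10 past 1.5-fold. Slc3a1 (rBAT), the heavy chain that brings a cystine and dibasic amino acid carrier to the membrane, was lowest. As deposited it read -0.99, 0.48, -0.81 and 0.74, so that its sign there followed the dye. After centring it read -0.45, -0.36, -0.28 and -0.086, all below 0, with a mean of -0.30 ± 0.16. Slc6a18, a neutral amino acid carrier known from kidney, read -1.35, 1.41, -1.17 and 1.28, with a mean of -0.11 ± 0.10 that became 0.041 without centring. The vesicular glutamate carrier gene Slc17a7 had -0.10 and the vesicular GABA and glycine carrier gene Slc32a1 -0.046. The glutamate carrier genes Slc1a1 and Slc1a2 had -0.083 and 0.049, and the glutamine carrier gene Slc1a5 (ASCT2) had 0.040 ± 0.22. The arginine and lysine carrier gene Slc7a1 had 0.070, the large neutral amino acid carrier gene Slc7a5 (LAT1) -0.019 and its relative Slc7a7 -0.0079. The class median was -0.033, or 0.12 without centring.

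The metal class held Slc31a1 alone, the copper uptake carrier CTR1. Its arrays read -0.079, 0.36, -0.10 and 0.29. The mean of -0.035 ± 0.024 turned to 0.12 without centring and to 0.046 on the probe with the dye difference nearest 0, so it had no settled sign.

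The 20 other carriers had means from -0.51 to 0.38, none past 1.5-fold, with a median of -0.065. Slc17a1 (NPT1), a carrier of phosphate and organic anions such as urate, read -0.95, 0.13, -0.91 and 0.29, with a mean of -0.51 ± 0.093. Slc46a1, the proton-coupled folate carrier, read -0.70, -0.12, -0.66 and 0.066, with a mean of -0.51 ± 0.11. Both were 1.28-fold lower without centring, and on neither did all 4 deposited arrays share a sign. After centring, all 4 arrays of both genes lay below 0. Slc17a1 then read -0.42, -0.72, -0.38 and -0.54, and Slc46a1 -0.17, -0.97, -0.13 and -0.76. Slc16a7 (MCT2), a monocarboxylate carrier, followed with a mean of -0.38 ± 0.18 and also lay below 0 on all 4 centred arrays.

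Slc25a14, a mitochondrial carrier also called UCP5, read 0.50, 0.53, 0.55 and 0.55. All 4 lay above 0 and close together, though after centring arrays 2 and 4 fell to -0.31 and -0.28. Its mean was 0.38 ± 0.029 after centring and 0.53 (1.45-fold) without. Slc4a4 (NBCe1), a sodium bicarbonate cotransporter, read -0.55, 1.25, -0.53 and 1.16, with a mean of 0.18 ± 0.038. Slc13a3, a sodium dicarboxylate cotransporter, read -0.10, 0.71, -0.18 and 0.67, with a mean of 0.12 ± 0.046 over 5 probes. It had -0.00052 on the probe with the dye difference nearest 0.

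The remaining 14 members of this class lay between -0.18 and 0.086. The phosphate cotransporter gene Slc34a3 had -0.18, the vesicular monoamine carrier gene Slc18a2 -0.16, and the noradrenaline and serotonin carrier genes Slc6a2 and Slc6a4 -0.0042 and 0.021. Of the chloride cotransporters, Slc12a1 had -0.15, Slc12a7 -0.12, Slc12a3 -0.10 and Slc12a2 0.086. The peptide carrier genes Slc15a3, Slc15a2 and Slc15a4 had -0.12, 0.0048 and 0.034. The lactate carrier gene Slc16a1 (MCT1) had -0.077, the sulfate carrier gene Slc26a1 -0.053 and the biotin and pantothenate carrier gene Slc5a6 -0.051. Apart from Slc34a3, Slc18a2, Slc12a1, Slc12a2, Slc16a7, Slc17a1, Slc46a1, Slc25a14, Slc4a4 and Slc13a3, every member of this class changed sign under another centring. Slc34a3, Slc18a2 and Slc12a1 kept theirs narrowly, with means of -0.024, -0.0078 and -0.00066 without centring.

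**Figure D2:**
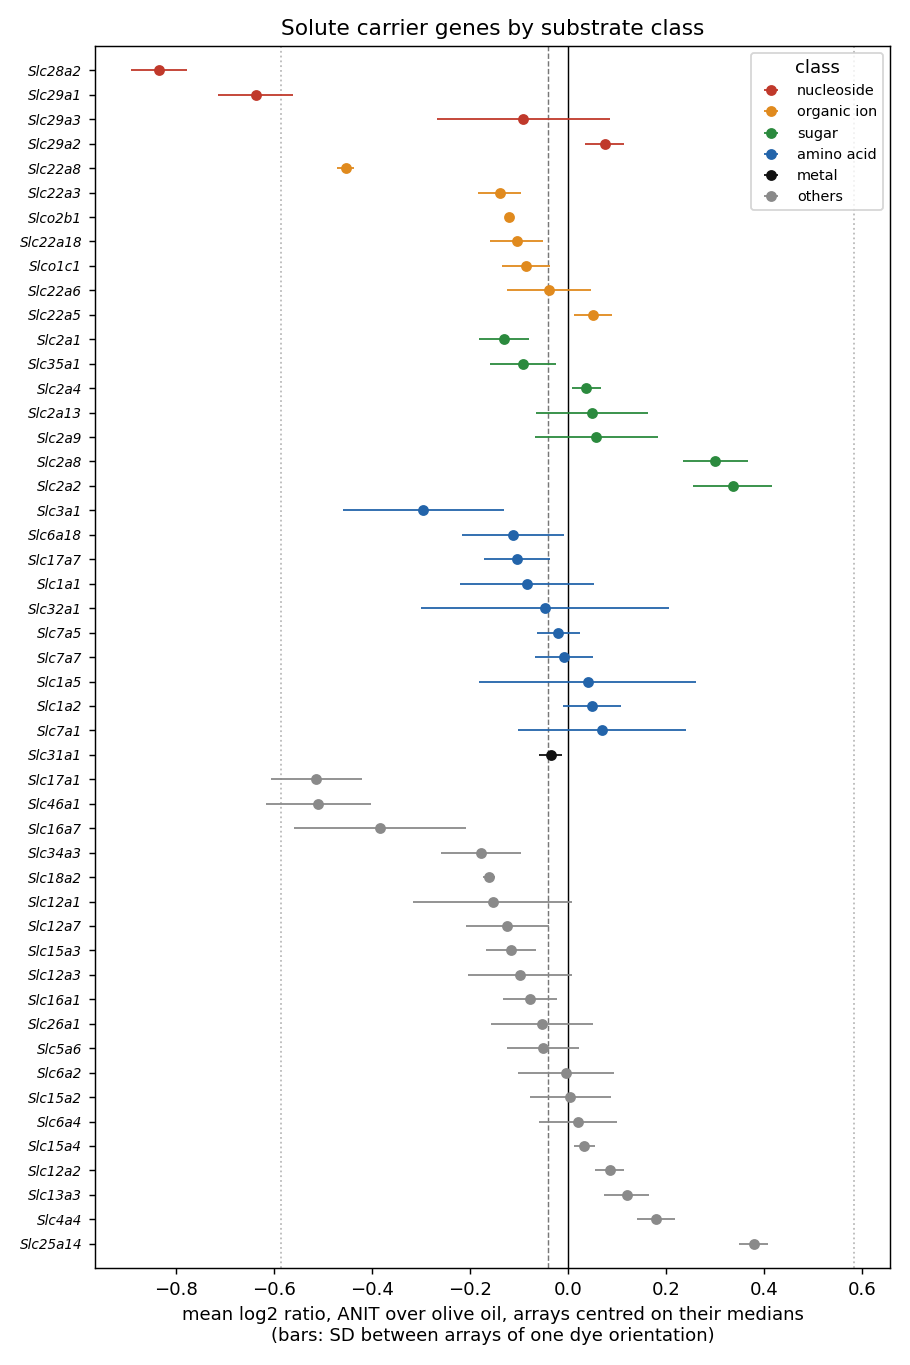
Mean centred log2 ratios (x axis) of the 49 solute carrier genes (y axis), coloured by substrate class, with bars for the SD within dye orientation. Dotted lines mark 1.5-fold and the dashed line the median of all genes (-0.040). Only Slc28a2 (-0.83) and Slc29a1 (-0.64) lie outside the dotted lines.

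Of the 49 members, 45 (91.8%) had mean ratios between -0.5 and 0.5, close to the 91.3% of all genes. Over the 3 centrings (array median, none, Hprt1 and Actb), 8 members stayed above 0 (16.3%, against 30.1% of all genes) and 10 below (20.4% against 19.6%). As deposited, 4 members were above 0 on all 4 arrays (8.16%), against 181 of all genes (18.9%), and 3 below (6.12%), against 46 (4.8%). These 7 were Slc25a14, Slc2a2, Slc2a8 and Slc29a2, and Slc28a2, Slc29a1 and Slc22a8. After centring, Slc28a2 and Slc29a1 alone of these 7 had 1 sign on all 4 arrays. Outside these 7, Slc17a1, Slc46a1, Slc16a7 and Slc3a1 were below 0 on all 4 centred arrays, and Slc12a2 and Slc1a2 above 0. The share of all genes with 1 sign on all 4 centred arrays was not counted.

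Fitted with limma, with dye orientation as a term and Benjamini-Hochberg adjustment over all 958 genes, 5 members were higher and 15 lower in the ANIT pool beyond hybridisation error (adjusted p under 0.05). This compares the RNA pools and not the treatment. Without the dye term limma called 0 members higher and 0 lower after adjustment, against 5 of all 958 genes. At an unadjusted p under 0.05 it then called 5 of the 49 members, against 86 of all 958 genes. With the dye term, the share was 10.2% higher against 25.2% of all genes, and 30.6% lower against 29.2%. Without centring, 20 were higher (40.8% against 49.6% of all genes) and 6 lower (12.2% against 8.46%). The calls shared by both fits were Slc25a14, Slc2a2, Slc2a8, Slc4a4 and Slc13a3 as higher, and Slc28a2, Slc29a1, Slc17a1, Slc46a1, Slc22a8 and Slc16a7 as lower. The lower calls made only after centring, such as Slc2a1, Slc22a3 and Slc34a3, were of means between -0.30 and -0.10.

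Members differed widely in the gap between dye orientations as deposited, ANIT in Cy5 minus ANIT in Cy3. It ran from -3.19 for Slc34a3 to 0.021 for Slc22a8, with a median of -1.53, beside -1.24 over all genes. When all genes were divided into 4 bins of nearly equal size by this gap, 17 members fell in the most negative bin, 15 in the next, 7 in the third and 10 in the bin nearest 0. In the most negative bin no member lay outside -0.18 to 0.070, and the SD of the means over all 240 genes there was 0.092. In the bin nearest 0, member means ran from -0.64 to 0.38 and the SD over its 240 genes was 0.51. As deposited, both nucleoside carriers past 1.5-fold had small gaps (-0.50 and -0.42), as had Slc29a2 (-0.34), whereas the median gap was -2.16 for amino acid and -1.96 for organic ion carriers. Centring shifts every gap by the same amount, so a small gap as deposited is not a small gap after centring. The centred mean of Slc28a2 was -0.40 with ANIT in Cy5 and -1.27 with ANIT in Cy3, and that of Slc29a1 -0.16 and -1.11. The part of the dye gap in these ratios was not tested, and spot brightness was not analysed here.

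**Figure D3:**
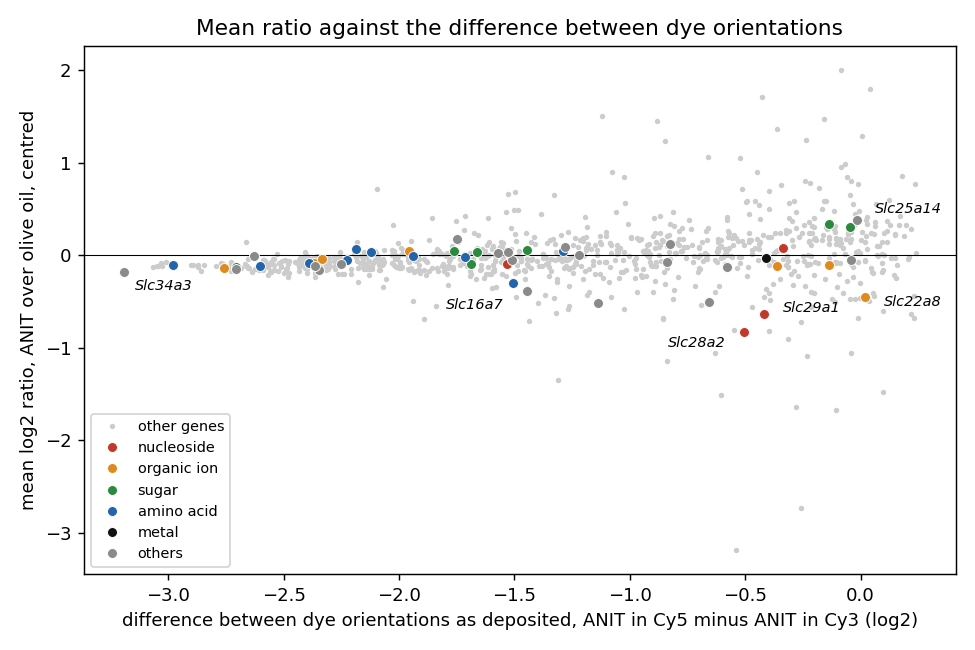
Mean centred log2 ratio (y axis) against the difference between dye orientations as deposited (x axis, log2) for the 49 solute carrier genes, coloured by class, and for all other named genes in grey. Ratios spread out toward the right, where the gap nears 0, and Slc28a2 (-0.83) and Slc29a1 (-0.64) lie in that part.

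Of the members, 14 had more than 1 probe, and in none did probe means differ by over 0.5. The gap between dye orientations differed by over 1 between the probes of 9 genes. For Slc2a4, 3 probes with gaps from -2.71 to -2.30 had means between -0.095 and -0.019, while the other probes, with gaps of -0.48 and -0.32, had 0.32 and 0.049. For Slc16a1, the 3 probes with the smallest gaps had means from -0.21 to -0.14, against 0.21 on a further probe. For Slc7a5, the probe with the smallest gap had 0.18 and the others -0.065 and -0.18. Gene means of these 3 carriers therefore joined probes of both signs. The same held for the other members with more than 1 probe, except Slc22a18 and Slco2b1.

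The pumps and channels that work beside the carriers had 0 of 8 measured genes past 1.5-fold and a median of -0.015. Abcd3, a peroxisomal fatty acyl pump, had -0.34, Abcc2 (MRP2), the canalicular pump of conjugated organic anions, -0.23, and Abcc4 (MRP4), a basolateral efflux pump, 0.21. Of the listed partners and regulators of carriers, 5 were measured. Nr0b2 (SHP) and Stat3 were higher, at 1.36 and 1.25, and the bile acid receptor gene Nr1h4 was 1.60-fold lower, at -0.68. Sgk1, a kinase that regulates membrane carriers, had -0.47 and Ahr 0.010.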

How the data were processed

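Poly(A) RNA of 1 pair of liver RNA pools was labelled with Cy3 and Cy5 and hybridised to 4 cDNA arrays, per the labels' protocols. The deposited table holds a log ratio per probe and array, taken as log2. How the authors corrected background, normalized and centred the values, and which log base they used, remain not given in the sources used here. Array medians were -0.53, 0.85, -0.53 and 0.83, so the columns were not centred on the median. The deposited table had 1936 probes and 0 missing values.

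The platform annotation gave a single gene symbol for 1432 of these, several for 19 (1 of them with an Slc symbol, not used) and did not list the other 485. Symbols were updated by Entrez identifier to RefSeq GRCr8, which matched all 89 member probes. Each array was centred on its median, probes of a gene and then arrays were averaged within and over dye orientations. Between arrays of opposite dye Pearson's r over all probes was -0.38 to -0.37, and over the 49 members -0.64 to -0.56. The table was read as already turned to ANIT over olive oil, a reading taken from an earlier analysis of the same table. The genes with the largest means keep their sign on all arrays. This cannot decide the reading, because genes that change sign between orientations average to near 0.

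Fits used limma 3.58.1 in R 4.3.3, tested on simulated data; other steps used Python 3.11.15. Per-array values are given for members past 1.5-fold, the 5 highest and 5 lowest, and the 2 of each class with the largest ratios in size. Members, classes and lists were chosen with earlier results of these data known.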

Additional observations from a re-analysis of the deposited data

How the results depend on the processing

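Class medians were compared with their SD over the 4 arrays, dye difference included. With each array left out in turn, 2 members stayed at least 1.5-fold lower and 0 higher, 0 passed 2-fold, and limma called 4 to 7 higher and 10 to 16 lower. Medians then ran from -0.41 to -0.32 for nucleoside, -0.12 to -0.088 for organic ion, 0.019 to 0.097 for sugar, -0.090 to -0.0049 for amino acid, -0.046 to -0.023 for metal and -0.092 to -0.045 for other carriers. Without centring, 1 member (Slc28a2) was 1.5-fold lower, the sugar median was 0.20, that of other carriers 0.087, and limma called 20 higher and 6 lower. With ANIT in Cy5 alone, 1 member was 2-fold higher (Slc25a14) and 1 lower (Slc34a3), 5 were 1.5-fold higher and 11 lower, and the sugar median was -0.11. Neither Slc28a2 (-0.40) nor Slc29a1 (-0.16) was among these 11. The nucleoside median there was -0.17, as was that of all members. With ANIT in Cy3 alone, 3 were 2-fold lower (Slc22a8, Slc28a2 and Slc29a1), 3 were 1.5-fold higher and 8 lower. Medians there were -0.78 for nucleoside, 0.35 for organic ion and 0.032 for other carriers, beside 0.097 over all members. Slc25a14, Slc2a2 and Slc2a8 then had -0.30, -0.28 and -0.36, against 1.05, 0.95 and 0.96 with ANIT in Cy5 alone. Another reading took the table as a dye ratio, turned the sign on arrays with ANIT in Cy3 and then centred each array. Under it, 7 of the 14 members chosen for per-array values kept their sign. Slc28a2 turned to 0.43, Slc29a1 to 0.47, Slc22a8 to 0.69, Slc46a1 to 0.36, Slc17a1 to 0.11, Slc31a1 to 0.48 and Slc4a4 to -0.19. Then 6 members were 1.5-fold higher and 7 lower, and medians were 0.45 for nucleoside and -0.15 for sugar carriers. Taken as natural logs, 1 member was 2-fold lower and 4 were 1.5-fold lower. Counts over all genes were not made for a single dye orientation, the dye ratio or natural logs. Nor were they made with an array left out or at an adjusted p under 0.01. The member counts under these settings therefore have no background and say nothing particular to the carriers. Without the dye term limma called 0 higher and 0 lower, against 5 of all 958 genes. Then 5 members had an unadjusted p under 0.05, against 86 of all genes. With the dye term and an adjusted p under 0.01, limma called 4 members higher and 8 lower. The cause of these shifts was not tested. Centring on Hprt1 and Actb, the median over arrays, single probes by SD or by dye difference and a sign rule applied to orientation means left both counts at 1.5-fold or 2-fold as they were. The choices of the probe with the dye difference nearest 0, of the sign rule at 1.5-fold and of adding the 4 genes left out were made after seeing the data. No paired analysis was possible because the arrays form 1 group of the same pair of pools. The number of arrays limits the precision.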
